A study of Mus musculus with 12 samples.

Results

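The effect of mutant Nras on gene expression was compared between both labelled populations of mouse haematopoietic stem cells (HSCs), from which every kind of blood cell is renewed. The quantity described is the interaction of genotype and label, which is the Nras minus wild-type difference in GFPhigh cells minus the same difference in GFP- cells, on log2 MAS5 signal. Samples were taken by their titles, and 12 of the 12 samples of the series entered the comparison. They form 4 groups of 3 biological replicates: Nras GFPhigh and wild-type GFPhigh, and Nras GFP- and wild-type GFP-. The Nras mice carried the G12D mutation on one allele (NrasG12D/+ in the labels). Mice of both genotypes drank doxycycline for 6 weeks, and the cells were sorted from bone marrow 12 weeks after it was removed. The labels call the GFP- cells cycling and the GFPhigh cells quiescent. The age and strain of the mice, the GFP transgene, the way in which the mutant allele was switched on, and whether a replicate is 1 mouse or a pool are not given in the sources used here.

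Nras encodes a small GTPase of the RAS family that couples cytokine and growth factor receptors to the RAF, MEK and ERK kinases and to PI3K. The G12D change slows the hydrolysis of bound GTP, so the protein stays active for longer. HSCs divide rarely, and a stable GFP label made under doxycycline is shared out at each division, so cells still bright after a chase have divided little. The series title speaks of a bimodal effect of oncogenic Nras, on proliferation and on self-renewal. A gene with opposite Nras effects in slowly and rapidly dividing HSCs has a large interaction with arms of opposite sign.

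Signals of Kit and Procr were high in every sample, and other genes of the HSC sort list varied more. Kit, the stem cell factor receptor, had signals of 2228.3 to 4281.4 over the 12 samples, and Procr, a receptor by which HSCs are recognised, 1472.6 to 8405.3. Hoxb5 read 1034 to 5678.7, Fgd5 218.7 to 2057.4, Slamf1 155.2 to 4046.5 and Tek 43.1 to 3334. Cd34 read 86.2 to 3987.3, Flt3 8.2 to 555 and Cd48 2.8 to 512.4. Array weights, which limma lowers for arrays that deviate from their group, were 0.403 and 0.503 in replicates 1 and 2 of Nras GFPhigh, 0.308 in Nras GFP- replicate 1 and 0.522 in wild-type GFPhigh replicate 2, whereas the remaining 8 arrays had 0.903 to 2.46. Values without these 4 arrays of low weight are given beside most of the genes described. That setting leaves Nras GFPhigh with 1 array, which is assumed to vary like the other groups. Replicate 3 of each group also differed from replicates 1 and 2 in the sex-linked transcript Xist, and it is present in all 4 groups. The 3' to 5' signal ratio of Gapdh, which rises as RNA breaks down, was 7.28 and 5.7 in Nras GFPhigh replicates 1 and 3. In the other 10 arrays it was 2.57 to 4.48. The CreX control, which is added to every array, was brightest in Nras GFPhigh, at 28340 (replicate 1) and 26505 (replicate 2). Its signal spanned 9325 to 17345 over the remaining 10 arrays. The part of Gapdh ratio and CreX signal in the GFPhigh differences was not tested. In bulk RNA, fewer cells of a type and less RNA per cell cannot be told apart.

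Few genes met a rule for large differences in opposite directions, and more met it in the same direction. The rule is a count and not a test. Genes were counted as opposite when Nras minus wild-type was at least 1 (log2 signal) in size and of opposite sign in the 2 populations, with no overlap between the 3 Nras and the 3 wild-type values in either. By this rule 32 of the 12083 genes tested (0.265%) were opposite, and 58 (0.48%) met the same limits with equal signs. Of the opposite genes, 21 (0.174%) were higher with Nras in GFPhigh and lower in GFP- cells, and 11 (0.091%) were lower in GFPhigh and higher in GFP- cells. Of the genes with equal signs, 45 (0.372%) were lower with Nras in both populations and 13 (0.108%) were higher in both. Quantile normalization divided the opposite genes into 14 and 18 in that order, and centring each array on its median divided them into 7 and 30. The balance of the opposite directions therefore turned with the scaling. With 100 added to each signal 11 genes were opposite and 25 had equal signs, and without the arrays of low weight, where fewer samples make separation easier, these were 241 and 306. Genes with equal signs outnumbered opposite ones in both settings. In a single population, whatever the effect size, the genotypes did not overlap for 1509 genes (12.5%) in GFPhigh and 1304 (10.8%) in GFP- cells. A lack of overlap in 1 population, given below for single genes, is read against these shares.

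No gene passed the test of the interaction at a Benjamini-Hochberg adjusted p under 0.05 in limma, where the smallest adjusted p was 0.274. At an unadjusted p under 0.05 there were 566 genes (4.68%), 294 (2.43%) with a positive and 272 (2.25%) with a negative interaction. This split was 217 and 321 after quantile normalization, and 138 and 464 after median centring. No gene passed in either arm, with 1002 genes (8.29%) at an unadjusted p under 0.05 in GFPhigh cells and 530 (4.39%) in GFP- cells. Over all genes the median was 0.106 for the interaction, -0.0901 for the Nras difference in GFPhigh cells and -0.175 for that in GFP- cells. Median centring moved the median interaction to -0.532, so list medians below are read against the median of all genes. The standard error of the interaction had a median of 1.25 over genes, so that many interactions of about 2-fold lay within the error of a single gene.

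**Figure D1:**
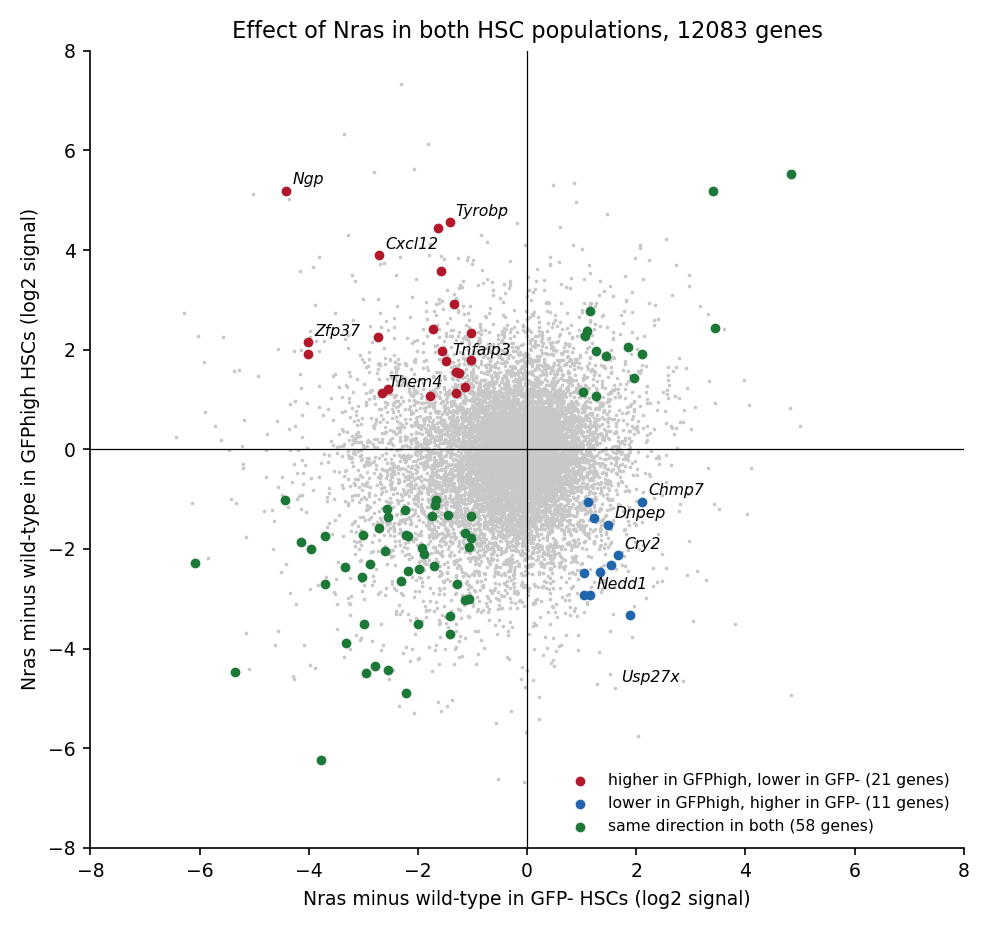
Nras minus wild-type log2 signal in GFP- cells (horizontal axis) and in GFPhigh cells (vertical axis) for the 12083 genes tested, one point each. Coloured points are the 21 and 11 genes that met the rule for opposite directions and the 58 that met it with equal signs, which lie mostly at the lower left (45 genes).

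Across genes the arms were almost unrelated, with Pearson's r = 0.0927 over the 12083 genes, which are not independent replicates. The arms share no sample. Effects of opposite sign, whatever their size, were found for 5519 genes (45.7%). Effects of at least 1 in both arms were of opposite sign in 583 genes (4.82%) and of equal sign in 946 (7.83%). Just outside the limit of 1 lay Npdc1, with a smaller effect of 0.932, Ccnt1 with 0.956 and Acot8 with 0.964, and just inside lay Prpf40b with 1.03, Morc4 with 1.04 and Chmp7 with 1.05. The counts below are of genes chosen by these differences, so the differences themselves describe the genes and carry no test beyond limma's fit over all genes.

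The genes lower with Nras in GFPhigh cells and higher with Nras in GFP- cells included regulators of the circadian clock, mRNA export, sterol synthesis and the mitotic spindle. All 11 kept opposite effects of at least 0.5 on log2(signal + 100) and after quantile normalization, and 10 of them carry gene names. In all 11 the Nras GFPhigh group had the lowest mean log2 signal of the 4 groups, and in 10 the Nras GFP- group had the highest. In wild-type cells the mean log2 signal was higher in GFPhigh than in GFP- cells for all 11, and in Nras cells it was lower for all 11. The rule that chose these genes favours such orders of the groups, so these counts describe the choice. Interactions ran from -5.21 to -2.17, with unadjusted p values from limma of 0.000139 to 0.0284 and adjusted p values of 0.84 to 0.956.

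Cry2 encodes a cryptochrome, a repressor in the circadian clock. Its signal was 1136.4, 1112.5 and 1033.9 in wild-type GFPhigh samples and 173.7, 291.7 and 316.9 in Nras GFPhigh samples. In GFP- cells it was 810.9, 245.1 and 529.6 in wild-type and 2926.7, 1224.3 and 949.1 in Nras samples. The wild-type GFPhigh values lay close together, and the genotypes did not overlap in either population. The Nras difference was -2.12 ± 0.66 (SE) in GFPhigh and 1.67 ± 0.66 in GFP- cells, with an interaction of -3.79 ± 0.93 (95% interval -5.80 to -1.77) and -2.97 without the arrays of low weight.

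Dnpep encodes an aspartyl aminopeptidase and had the highest signals of the named genes in this direction. It read 2821.2, 2511.9 and 1993.3 in wild-type GFP- and 10287.2, 6564.7 and 4659.5 in Nras GFP- samples. In GFPhigh cells it read 4117.3, 5875.4 and 2520.1 in wild-type and 1041.7, 1258.7 and 2030.6 in Nras samples. Every Nras GFP- sample was above every other sample except wild-type GFPhigh replicate 2, at 5875.4. The interaction was -3.0 ± 0.56 with an unadjusted p of 0.000139 and an adjusted p of 0.84 in limma, and -1.86 without the arrays of low weight. The 5 probe sets of Dnpep disagreed, from -3.0 to 0.776, and the sign was positive at 0.776 where probe sets that can match several transcripts were left out.

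Chmp7, a component of the ESCRT-III machinery that reseals the nuclear envelope after mitosis, differed mainly in GFP- cells. It read 662.8, 405.4 and 982.3 in wild-type GFP- and 3494.7, 3202.0 and 1904.6 in Nras GFP- samples. In GFPhigh cells it read 711.1, 1445.1 and 655.0 in wild-type and 494.7, 390.0 and 395.5 in Nras samples. The Nras GFP- samples stood above all others, by 2.11 ± 0.57 over wild-type GFP- cells, against -1.05 ± 0.57 in GFPhigh cells. The interaction was -3.16 ± 0.80, its 2 probe sets gave -3.35 and -3.16, and without the arrays of low weight it was -2.73.

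Mcm3ap and Pcid2 encode proteins of the TREX-2 complex, which carries mRNA to the nuclear pore. Mcm3ap read 754.5, 337.0 and 693.0 in wild-type GFPhigh samples against 51.9, 128.4 and 157.4 in Nras GFPhigh samples, and 637.5, 245.7 and 424.5 against 1545.3, 743.8 and 947.2 in GFP- samples. Pcid2 read 440.2, 617.0 and 274.6 against 118.1, 32.6 and 44.7 in GFPhigh samples, and 301.0, 255.6 and 185.2 against 738.3, 381.9 and 450.5 in GFP- samples. For both genes the 3 Nras GFPhigh samples were the lowest of all 12. The interaction was -3.81 ± 1.01 for Mcm3ap and -3.97 ± 1.03 for Pcid2, and -3.25 and -3.73 without the arrays of low weight. Both probe sets of Pcid2 had the same sign, at -6.28 and -3.97.

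Srebf2 encodes the transcription factor that switches on sterol synthesis. It read 2331.3, 961.1 and 1344.8 in wild-type GFPhigh samples against 476.8, 787.2 and 877.1 with Nras, and 1336.7, 871.0 and 901.7 against 1949.2, 3632.5 and 1483.6 in GFP- samples. The groups did not overlap in either population, though the nearest GFPhigh values of the genotypes, 961.1 and 877.1, were close. Its effects were even in size, at -1.06 ± 0.54 in GFPhigh and 1.11 ± 0.54 in GFP- cells, and the interaction was -2.17 ± 0.76, or -2.21 without the arrays of low weight.

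Nedd1 brings gamma-tubulin to the centrosome and the spindle. It read 550.0, 2506.4 and 528.6 in wild-type GFPhigh samples and 52.7, 70.0 and 454.9 in Nras GFPhigh samples, so that replicate 3 of the Nras group lay close to the wild-type values. The interaction of -4.08 ± 1.34 was -1.09 without the arrays of low weight, and a second probe set of Nedd1 gave 0.714. Morc4, a member of the MORC family of ATPases that bind chromatin, read 1920.1, 2024.8 and 1380.5 against 463.7, 81.7 and 818.8 in GFPhigh samples, and 516.3, 500.3 and 309.7 against 744.2, 908.7 and 1022.6 in GFP- samples. Its interaction was -3.52 ± 1.09, and -2.15 without the arrays of low weight.

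Pdlim7, a cytoskeletal adaptor with PDZ and LIM domains, and Dlg4, the scaffold protein PSD-95, complete the named genes of this direction. Their interactions were -3.86 ± 1.24 and -2.59 ± 1.05, and -1.64 and -2.23 without the arrays of low weight. The 3 probe sets of Dlg4 disagreed, from -2.59 to 4.25, and its interaction was 0.719 as the mean over its probe sets. The 3 probe sets of Pdlim7 also disagreed, from -3.86 to 0.805, with a mean over probe sets of -1.26. Without the arrays of low weight, 3 of the 10 named genes kept effects of at least 1 in both arms, while the signs of the arms are fixed by the choice of genes without overlap.

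Some genes of replication and repair and 1 ubiquitin protease had larger negative interactions but overlapped in GFP- cells. Usp27x, an X-linked deubiquitinase, had the smallest p of all genes. It read 2330.4, 4343.3 and 1739.0 in wild-type GFPhigh and 57.7, 94.4 and 148.9 in Nras GFPhigh samples, a difference of -4.80 ± 0.70 with a clear gap between the groups. In GFP- cells it read 981.9, 325.9 and 256.5 against 955.5, 1838.3 and 1337.9, where the lowest Nras value lay just under the highest wild-type value. The interaction of -6.42 ± 0.996 had an unadjusted p of 2.26e-05 and an adjusted p of 0.274 in limma, with a second probe set at -3.21 and a value of -5.61 without the arrays of low weight.

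Lig1, the ligase that joins Okazaki fragments in replication, read 3751.1, 4261.4 and 2635.8 in wild-type GFPhigh and 47.1, 294.4 and 858.9 in Nras GFPhigh samples. In GFP- cells it read 3807.7, 4093.7 and 2651.8 against 7440.4, 3840.2 and 5183.8, and those groups overlapped. The Nras GFPhigh samples were thus the only low ones of the 12. The interaction was -4.54 ± 1.1, and -2.24 without the arrays of low weight, with nearly all of it from the GFPhigh arm at -3.93 ± 0.78. Fancb, of the Fanconi anaemia core complex that repairs DNA crosslinks, had -7.78 ± 1.71 and -4.05 in the same order, and a second probe set gave -0.157. The geometric mean of Fancb in Nras GFPhigh samples was 6.75, and with 100 added to each signal its interaction was -3.52.

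The second set holds the 21 genes that were higher with Nras in GFPhigh cells and lower in GFP- cells. Of the 21, 17 kept opposite effects of at least 0.5 on log2(signal + 100) and after quantile normalization. In 18 of the 21 the Nras GFPhigh group had the highest mean log2 signal of the 4 groups, and in 11 the Nras GFP- group had the lowest. In wild-type cells the mean was higher in GFPhigh than in GFP- cells for 2 of the 21, and in Nras cells it was higher in GFPhigh for all 21. These orders, too, are favoured by the rule and describe the choice. Interactions ran from 2.39 to 9.61, with unadjusted p values from limma of 0.000746 to 0.0649 and an adjusted p of 0.956 for each. Of the 17, the 10 with the largest smaller effect on the log2(signal + 100) scale are described.

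Tnfaip3 encodes A20, a ubiquitin-editing enzyme that restrains NF-kB. It read 1642.5, 1573.9 and 1583.6 in wild-type GFP- and 1008.0, 171.8 and 1057.3 in Nras GFP- samples. In GFPhigh cells it read 1254.0, 419.6 and 888.3 in wild-type and 1661.8, 4635.8 and 2390.8 in Nras samples. The wild-type GFP- values were tight and lay between those of the Nras populations. The Nras difference was 1.77 ± 0.73 in GFPhigh and -1.49 ± 0.73 in GFP- cells, and the interaction was 3.26 ± 1.03 (95% interval 1.04 to 5.48), or 3.09 without the arrays of low weight. A second probe set of Tnfaip3 gave 0.727, and the mean over its probe sets was 1.99.

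Nmt2, an enzyme that attaches myristate to the amino terminus of proteins, read 413.1, 689.0 and 1317.5 in wild-type GFPhigh and 1864.1, 2147.3 and 2289.8 in Nras GFPhigh samples. In GFP- cells it read 1697.0, 1838.2 and 2795.8 against 441.7, 1301.0 and 1146.6. The Nras GFPhigh values resembled those of wild-type GFP- cells, and the Nras GFP- values those of wild-type GFPhigh cells. The interaction was 2.78 ± 0.80, and 2.39 without the arrays of low weight. Its 4 probe sets ran from -0.266 to 3.15.

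Hdac9, a class IIa histone deacetylase, had a similar order of groups. It read 289.2, 297.6 and 297.9 in wild-type GFPhigh and 882.7, 1593.4 and 456.9 in Nras GFPhigh samples, and 587.2, 767.9 and 1087.9 against 344.6, 233.3 and 411.3 in GFP- samples. The wild-type GFPhigh values were nearly equal and below every Nras GFPhigh value. The interaction was 2.85 ± 0.91, and 1.99 without the arrays of low weight, with a second probe set at 0.688.

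Mgst1, a membrane-bound glutathione S-transferase, read 170.6, 159.3 and 169.2 in wild-type GFPhigh and 545.3, 1221.2 and 421.2 in Nras GFPhigh samples, and 358.7, 278.5 and 547.2 against 44.4, 277.0 and 176.1 in GFP- samples. The GFP- groups were separated by a narrow margin, 278.5 against 277.0. The interaction was 3.53 ± 1.13, its probe sets gave 3.53 and 3.68, and it was 2.09 without the arrays of low weight. Them4, a mitochondrial thioesterase that also binds AKT, read 475.7, 426.7 and 270.5 against 21.1, 72.5 and 146.4 in GFP- samples and had an interaction of 3.76 ± 1.12, or 2.95 without those arrays. Gphn, which anchors receptors and takes part in molybdenum cofactor synthesis, had 2.41 ± 0.88 and 1.45, and the zinc finger gene Zfp37 had 6.16 ± 2.09 and 3.40. A second probe set of Them4 gave 1.48, and the 3 probe sets of Gphn ran from 0.9 to 2.41. The geometric mean of Zfp37 in Nras GFP- samples was 8.22, and with 100 added to each signal its interaction was 2.11.

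Ngp, Tyrobp and Cxcl12 are genes of mature myeloid cells or of the marrow niche, and their interactions were among the largest of the opposite genes. Ngp, a protein of neutrophil granules, read 385.9, 11.5 and 33.9 in wild-type GFPhigh and 1658.9, 8790.0 and 502.2 in Nras GFPhigh samples, and 1196.1, 216.3 and 2342.5 against 137.7, 4.6 and 98.6 in GFP- samples. Its values spread over more than an order of magnitude within each group. The interaction was 9.61 ± 2.27, and 7.45 without the arrays of low weight. Tyrobp, the adaptor of activating receptors on myeloid and NK cells, had 5.98 ± 1.68 and 2.85.

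Cxcl12, the chemokine that holds HSCs in their niche through CXCR4, was high in all 3 Nras GFPhigh samples. It read 1411.6, 601.8 and 700.9 there, against 21.6, 49.3 and 166.6 in wild-type GFPhigh samples, and 24.4, 27.6 and 3.9 in Nras GFP- against 68.7, 44.9 and 239.4 in wild-type GFP- samples. All 3 Nras GFP- values lay below the medians of their own arrays, 44, 51.9 and 95.7, so the GFP- arm of -2.71 rests on low signals, and with 100 added to each signal that arm was -0.777. The interaction was 6.62 ± 1.51 with an unadjusted p of 0.000746 and an adjusted p of 0.956 in limma, and it was 6.67 without the arrays of low weight. The other probe sets of Cxcl12 did not bear the same value, the lowest being -0.469. Of the 10 genes described in this direction, 4 kept effects of at least 1 in both arms without the arrays of low weight.

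**Figure D2:**
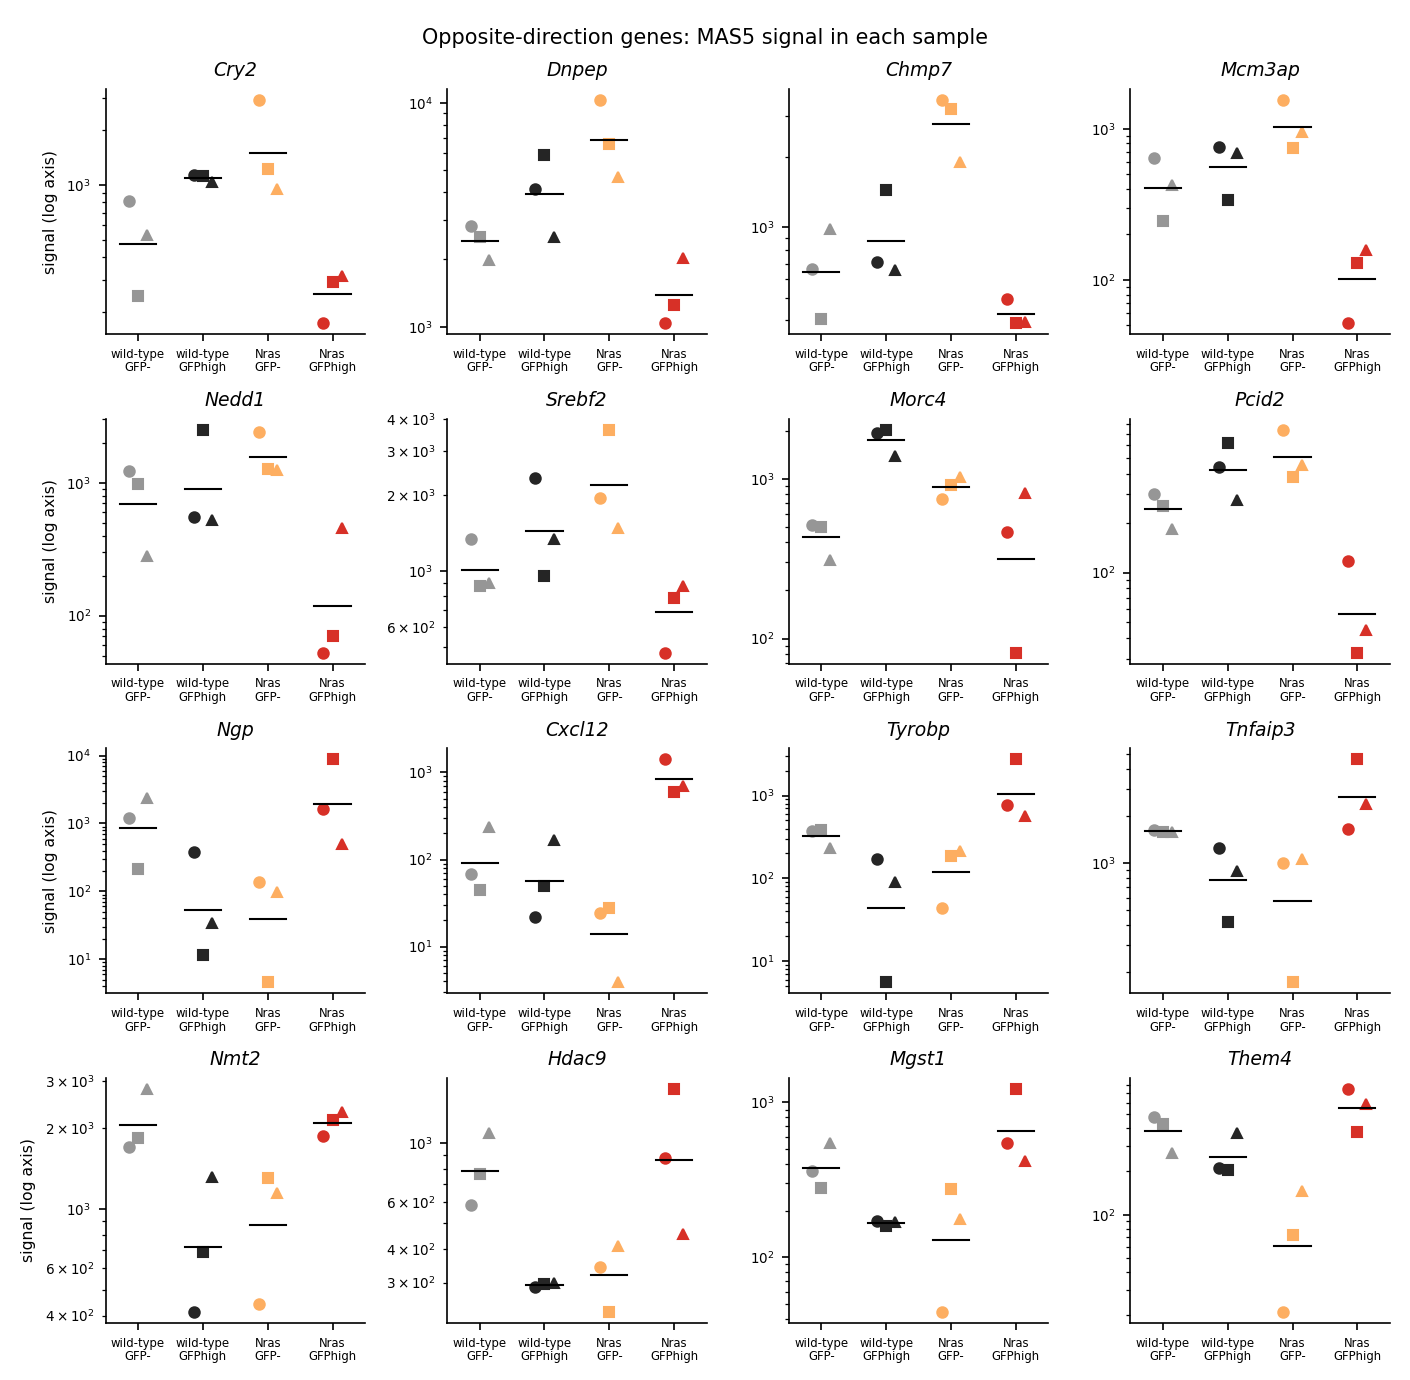
MAS5 signal (log axis) of 16 opposite-direction genes in each of the 12 samples. Circles, squares and triangles are replicates 1, 2 and 3, and bars are group means of log2 signal. In the top 8 genes, from Cry2 to Pcid2, the mean of the Nras GFPhigh group is the lowest of the 4, and in the lower 8, from Ngp to Them4, the Nras samples lie above wild-type in GFPhigh and below it in GFP- cells.

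The remaining 7 opposite genes with gene names were Gata6, Panx2, Zfyve26, Prpf40b, Asb14, Cdr2l and Gdf9, all higher with Nras in GFPhigh cells, with interactions of 2.39 to 5.16. They are listed to account for every gene and fell outside the naming rule. The last 5 of the 32 carry clone names. Outside the rule, Sparc, a matrix protein of stromal cells, had an interaction of 7.94 ± 1.69, Cd177, a neutrophil surface protein, 7.69 ± 1.72, and Kif21a, a kinesin motor, 6.26 ± 1.51, with overlapping groups in GFP- cells. Without the arrays of low weight these were 6.89, 6.8 and 5.21. With 100 added to each signal they were 3.31, 2.29 and 4.78. The geometric means of Sparc and Cd177 in wild-type GFPhigh samples were 7.44 and 5.16. The 3 probe sets of Sparc ran from 0.739 to 7.94, and the 3 of Kif21a from 0.0366 to 6.26.

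Promoter sequence was examined because the opposite genes move together by definition of the rule. RefSeq promoters of GRCm38.p6, 300 bases from 250 before to 50 after the start of transcription, were found for 25 of the 32 genes. Motifs were searched on both strands for factors downstream of RAS and cytokine receptors and for clock and sterol regulators: the STAT motif TTCNNNGAA, the AP-1 motif TGANTCA, the E-box CACGTG, the CRE TGACGTCA and the ETS motif CCGGAAGT. The AP-1 motif was in 4 of 21 promoters (19.0%) of the genes higher in GFPhigh cells, against 7.81% of all 32851 promoters in the table and 5.15% of those of the genes tested, and in 0 of 12 promoters of the other direction. The E-box was in 3 of 21 (14.3%) and 2 of 12 (16.7%), against 9.99% for the genes tested. The ETS motif was in 1 of the 12 (8.33%) and the STAT motif in 1 of the 21 (4.76%), against 7.78% and 6.82% for the genes tested. The CRE was in 0 of either set, against 2.86% for the genes tested. Several promoters of 1 gene can overlap, and with so few promoters these shares are descriptions. The promoters of Dnpep, Mcm3ap, Tnfaip3 and Mgst1 show each motif found among the genes described, and that of Usp27x is added for the smallest p. Dnpep, Tnfaip3 and Mgst1 each have another promoter, not printed, that holds none of these motifs. Capitals mark the motifs, and positions count from the start of transcription.
Dnpep, chr1:75317588-75317887, minus strand, E-box at -90: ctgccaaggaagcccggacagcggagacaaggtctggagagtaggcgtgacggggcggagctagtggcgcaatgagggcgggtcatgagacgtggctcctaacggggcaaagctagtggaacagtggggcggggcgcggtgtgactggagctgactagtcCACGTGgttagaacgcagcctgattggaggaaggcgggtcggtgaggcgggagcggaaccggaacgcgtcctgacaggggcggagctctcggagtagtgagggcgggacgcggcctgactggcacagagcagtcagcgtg
Mcm3ap, chr10:76468652-76468951, plus strand, ETS motif at -32: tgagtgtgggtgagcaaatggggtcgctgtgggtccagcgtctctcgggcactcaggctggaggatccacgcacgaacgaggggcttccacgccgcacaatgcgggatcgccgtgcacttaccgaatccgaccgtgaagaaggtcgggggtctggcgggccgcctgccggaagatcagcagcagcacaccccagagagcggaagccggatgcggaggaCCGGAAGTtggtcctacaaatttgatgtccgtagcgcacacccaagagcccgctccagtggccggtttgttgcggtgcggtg
Usp27x, chrX:7375781-7376080, minus strand, STAT motif at -192: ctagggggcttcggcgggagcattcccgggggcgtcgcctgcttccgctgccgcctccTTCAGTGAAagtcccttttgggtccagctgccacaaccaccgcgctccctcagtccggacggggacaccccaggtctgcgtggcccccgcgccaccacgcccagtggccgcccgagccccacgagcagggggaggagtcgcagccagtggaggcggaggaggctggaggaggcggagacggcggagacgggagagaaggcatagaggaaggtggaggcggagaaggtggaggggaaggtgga
Tnfaip3, chr10:19015361-19015660, minus strand, AP-1 motif at -136 and E-box at -33: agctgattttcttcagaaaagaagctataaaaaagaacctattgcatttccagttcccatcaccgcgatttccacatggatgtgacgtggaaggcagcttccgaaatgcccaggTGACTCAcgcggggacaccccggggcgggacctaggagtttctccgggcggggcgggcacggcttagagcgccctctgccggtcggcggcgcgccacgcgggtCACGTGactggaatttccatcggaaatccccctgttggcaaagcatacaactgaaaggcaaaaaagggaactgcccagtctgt
Mgst1, chr6:138141337-138141636, plus strand, STAT motif at 31: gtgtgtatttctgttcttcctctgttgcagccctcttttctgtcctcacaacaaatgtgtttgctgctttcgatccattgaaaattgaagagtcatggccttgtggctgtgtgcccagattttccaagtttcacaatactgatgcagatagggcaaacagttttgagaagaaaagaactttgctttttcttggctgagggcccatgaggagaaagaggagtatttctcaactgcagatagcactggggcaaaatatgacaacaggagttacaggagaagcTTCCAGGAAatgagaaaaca

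Genes of the RAS pathway did not stand apart in the interaction. Of 25 RAS family members, regulators and effectors tested, 12 had a positive interaction and 0 an unadjusted p under 0.05, with a median of -0.00171 against 0.106 for all genes. Nras itself read 3209.8, 3159.1 and 2881.2 in wild-type GFP-, 3566.8, 3845.5 and 3530.4 in Nras GFP-, 2415.1, 1250.2 and 3373.7 in wild-type GFPhigh and 3003.7, 2409.7 and 4274.8 in Nras GFPhigh samples. The genotypes were separated in GFP- cells and overlapped in GFPhigh cells. Its interaction was 0.29 ± 0.51 (95% interval -0.81 to 1.40). The mutation changes 1 amino acid, so the level of the transcript does not check the genotype labels.

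Of 26 ERK feedback and output genes, 11 had a positive interaction and the median was -0.34, or 0.167 without the arrays of low weight. Ets2, an ETS factor that ERK phosphorylates, was the 1 gene at an unadjusted p under 0.05, with 3.35 ± 1.44, or 3.43 without the arrays of low weight. Dusp6, the phosphatase that switches off ERK, read 1100.1, 1265.2 and 1247.3 in wild-type GFPhigh and 1984.7, 2074.0 and 3086.1 in Nras GFPhigh samples, with no overlap, and 2274.4, 1295.9 and 2222.3 against 3642.5, 2071.2 and 2686.0 in GFP- samples, with overlap. Its difference was positive in both populations, at 0.96 ± 0.39 and 0.54 ± 0.39, and the interaction was 0.41 ± 0.55 (95% interval -0.78 to 1.60). Egr1, an immediate early gene, also had positive differences, at 0.58 ± 0.25 and 0.35 ± 0.25, with an interaction of 0.23 ± 0.36. After quantile normalization its difference in GFPhigh cells was 0.0933, whereas that of Dusp6 was 1.02. Spry2, an inhibitor of RAS signalling, had -0.94 ± 0.82.

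STAT5 relays cytokine signals in HSCs. Of 22 STAT5 and cytokine feedback genes, 13 had a positive interaction, 0 had an unadjusted p under 0.05, and the median of 0.44 was -0.38 without the arrays of low weight. Stat5a had -0.53 ± 0.44 and Stat5b -1.39 ± 0.83, the latter -0.32 without those arrays, while the feedback inhibitors Cish and Socs2 had -1.08 ± 1.58 and 1.11 ± 1.99 and the kinase Pim1 0.20 ± 0.52. The intervals of Cish (-4.49 to 2.33) and Socs2 (-3.19 to 5.4) admit large effects either way. The 22 PI3K, AKT and mTOR genes had a median of -0.0676, and the 24 immediate early genes 0.302.

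Cell cycle genes were likewise spread around the value for all genes. Of 29 genes of G1/S and DNA replication, 15 had a positive and 14 a negative interaction, with a median of 0.0137 and 2 at an unadjusted p under 0.05, both negative. These were Lig1 and Mcm7, a subunit of the replicative helicase, with -1.31 ± 0.59, or -0.36 without the arrays of low weight. The 4 probe sets of Mcm7 disagreed, from -1.31 to 0.713. Of 28 genes of G2/M and mitosis, 12 were positive, with a median of -0.279, while the Nras difference was positive for 19 in GFPhigh and 19 in GFP- cells, with medians of 0.562 and 0.489. Kif23, a kinesin of the central spindle, had -2.98 ± 1.32, or -1.4 without those arrays.

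Among single regulators, Ccnd1, cyclin D1, read 2038.3, 1477.7 and 1358.1 in wild-type GFP- and 4440.5, 3310.6 and 3084.5 in Nras GFP- samples, without overlap. In GFPhigh cells it read 3172.9, 1632.7 and 2229.7 against 2643.1, 2498.8 and 2553.9, where the groups overlapped. The interaction was -0.98 ± 0.48 (95% interval -2.02 to 0.07), and -1.06 without the arrays of low weight. Mki67, a marker of proliferating cells, read 4040.6, 51.6 and 2089.8 in wild-type GFPhigh samples, and its interaction of 2.34 ± 1.68 became -0.60 without those arrays. The interactions of Ccnd2, Cdk6, Cdkn1a and Cdkn1c were 0.23 ± 0.28, -0.10 ± 0.77, 1.56 ± 1.99 and -0.59 ± 0.98.

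Stem cell genes gave no common direction. Of 26 HSC identity genes 15 had a positive interaction, with a median of 0.14, and of 27 quiescence regulators 15, with a median of 0.105. Fgd5, a guanine nucleotide exchange factor that marks HSCs, differed in size rather than in direction. It read 1973.3, 1741.0 and 2057.4 in wild-type GFPhigh and 218.7, 264.8 and 652.5 in Nras GFPhigh samples, and 1003.1, 988.1 and 1117.0 against 879.8, 705.5 and 778.4 in GFP- samples. The Nras samples were below wild-type in both populations, by -2.52 ± 0.55 and -0.40 ± 0.55, and the interaction was -2.12 ± 0.77, or -1.15 without the arrays of low weight.

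Foxo1, a transcription factor that AKT keeps out of the nucleus, read 700.2, 167.4 and 164.5 in wild-type GFP- and 2734.8, 1622.4 and 1041.3 in Nras GFP- samples. In GFPhigh cells it read 904.5, 2640.0 and 1060.2 against 1582.4, 519.3 and 1626.2. The groups were separated in GFP- cells and overlapped in GFPhigh cells, with an interaction of -2.94 ± 1.07, or -1.55 without the arrays of low weight. The 4 probe sets of Foxo1 ran from -2.94 to -0.0472, and without probe sets that can match several transcripts the value was -0.261. Slamf1, the SLAM receptor CD150 used to sort HSCs, had -2.72 ± 1.26, or -0.776 without those arrays, and its 3 probe sets ran from -4.99 to 5.04. Kit, Procr, Mecom, Gfi1 and Myc had 0.33 ± 0.42, 0.85 ± 0.50, 0.16 ± 0.34, 1.41 ± 1.14 and -0.39 ± 0.42, and that of Gfi1 was 0.0563 without those arrays.

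Genes of mitochondrial respiration and of the ribosome were shifted towards GFPhigh cells in the full set of arrays. Of 31 genes of oxidative phosphorylation, 26 had a positive interaction, with a median of 0.678 against 0.106 for all genes, and 20 (64.5%) had arms of opposite sign, against 45.7% of all genes. Sdhb, the iron-sulphur subunit of succinate dehydrogenase, read 1313.5, 1386.6 and 1433.1 in wild-type GFPhigh and 1961.1, 2912.5 and 1713.7 in Nras GFPhigh samples, and 1887.2, 1965.0 and 1663.8 against 669.8, 989.8 and 1336.4 in GFP- samples. It was separated in both populations in opposite directions, by 0.64 ± 0.42 and -0.93 ± 0.42, which is under the size the rule asks for. The interaction of Sdhb was 1.57 ± 0.59 and that of Cycs, cytochrome c, 1.31 ± 0.54. Without the arrays of low weight the list median was -0.0431 and those of Sdhb and Cycs were 0.99 and 0.42.

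Of 19 cytoplasmic ribosomal protein genes, 18 had a positive interaction, with a median of 0.432, or 0.169 without the arrays of low weight. Rpl11 had 0.70 ± 0.25 and Rps14 0.54 ± 0.20, and both were above wild-type in all 3 Nras GFPhigh samples. Their differences in GFPhigh cells, 0.617 and 0.469, were 0.0933 and -0.0966 after quantile normalization. Genes that build ribosomes went the other way, with 13 of 33 positive and a median of -0.394, or -0.103 without those arrays. Median centring turned the ribosomal protein median to -0.207 and Rps14 to -0.10, which are still above the all-gene median of -0.532 on that scale.

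The interferon response list had 17 of 27 genes positive, with a median of 0.42 and 4 genes at an unadjusted p under 0.05, all positive. Ifit3, an interferon-induced antiviral protein, read 724.2, 50.5 and 412.5 in wild-type GFPhigh and 2082.8, 951.0 and 780.5 in Nras GFPhigh samples, and 365.7, 264.7 and 141.9 against 13.9, 50.1 and 202.1 in GFP- samples. It was separated in GFPhigh cells, and in GFP- cells Nras replicate 3 lay within the wild-type range. The interaction of Ifit3 was 4.43 ± 1.59, and that of Gbp3, an interferon-induced GTPase, 2.19 ± 0.83. Without the arrays of low weight they were 1.76 and 1.37, and the list median was -0.062.

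Stress and repair genes varied singly. Dnajb9, a co-chaperone of the endoplasmic reticulum, read 3588.8, 4557.7 and 4098.8 in wild-type GFPhigh and 6267.3, 6290.8 and 4956.6 in Nras GFPhigh samples, and 3100.1, 3517.2 and 3800.8 against 1784.7, 2902.6 and 2987.2 in GFP- samples. Its groups were separated in opposite directions with effects of 0.51 ± 0.26 and -0.47 ± 0.26, and the interaction was 0.99 ± 0.37, or 0.60 without the arrays of low weight. Of 26 heat shock and unfolded protein genes, 21 had a positive interaction, with a median of 0.326. Chek1, a kinase of the replication checkpoint, had -4.35 ± 1.46, or -2.19 without the arrays of low weight, and its 5 probe sets ran from -4.35 to 0.865, with a mean of -0.7. Gadd45a, a p53 target, had 7.67 ± 2.70, or 2.28 without those arrays, with values of 1.4 to 269.0 in Nras GFP- samples.

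**Figure D3:**
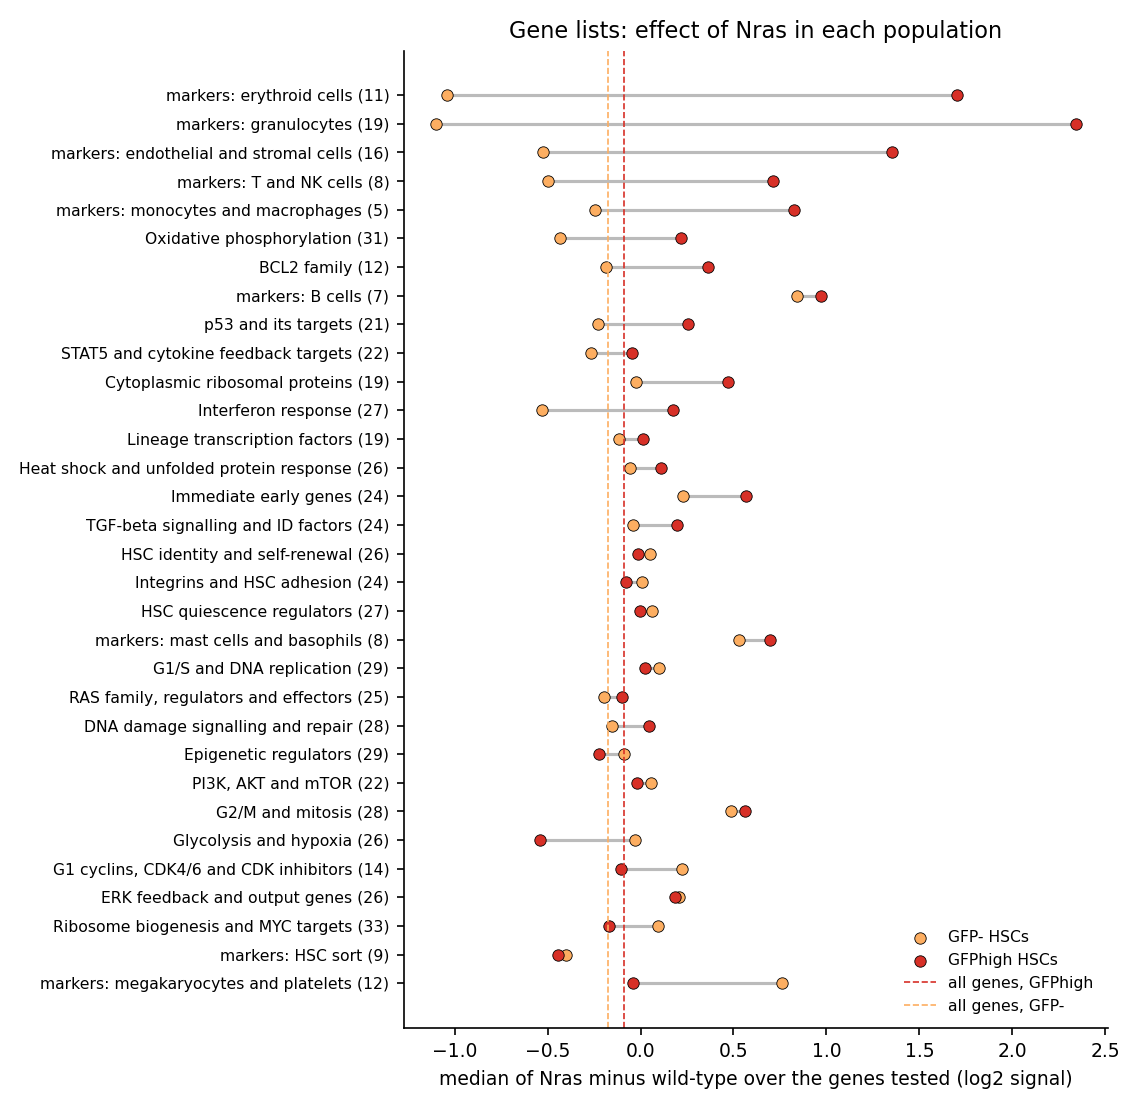
Median Nras minus wild-type log2 signal of each gene list in GFP- cells (orange) and GFPhigh cells (red), with the number of genes tested in brackets, and the medians of all genes as dashed lines (-0.175 and -0.0901). Lists are ordered by their median interaction, and markers of erythroid cells, granulocytes and stromal cells have the widest gaps.

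Markers of erythroid cells, granulocytes and endothelial and stromal cells had the largest positive median interactions of all lists. Medians were 1.15 for T and NK cells and 1.07 for monocytes and macrophages. They were 0.638 for B cells, 0.0749 for mast cells and basophils and -0.552 for the 9 genes of the HSC sort list. Of 11 erythroid markers tested, 11 had a positive interaction, with a median of 2.56. Of 19 granulocyte markers 15 did, with a median of 2.30 and 7 at an unadjusted p under 0.05, and of 16 endothelial and stromal markers 14, with a median of 1.99. Over the 12083 genes 53.9% were positive. Of the 19 granulocyte markers, 1 passed the filter on low values through Nras GFPhigh samples alone.

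Granulocyte, erythroid and monocyte markers were high in Nras GFPhigh replicates 1 and 2 and not in replicate 3. The summed signal of 19 granulocyte markers was 75679, 99247 and 20581 in Nras GFPhigh replicates 1, 2 and 3, and 12313 to 28156 in the other 9 samples. That of 13 erythroid markers was 41007, 45284 and 12181, against 10551 to 22903. That of 23 endothelial and stromal markers was 11767, 18890 and 6763, against 2750 to 6617, and that of 14 monocyte and macrophage markers was 14272, 17921 and 7141, against 3147 to 9379. The summed signal of 18 T and NK markers was 9083, 7405 and 8665, against 2472 to 6786 in the other 9 samples. That of 14 B cell markers was 2805, 7226 and 4267, against 1069 to 3568. Nras GFPhigh replicate 3 thus lay within the range of the other samples for granulocyte, erythroid and monocyte markers, and just above it for stromal ones. It was above that range for T and NK and for B cell markers, but single genes made up most of those sums. In replicate 3 Cd247 read 6612.7 and Cd72 2526.4, whereas Cd3e read 7.1 and Cd3g 8.1. The sums of these 2 lists therefore describe few genes. Replicates 1 and 2 are among the arrays of low weight, and without those arrays the list medians were 0.255 for granulocyte, 0.297 for erythroid and 1.18 for endothelial and stromal markers.

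Sparc read 1179.6, 930.7 and 128.1 in the Nras GFPhigh samples, Cd177 181.5, 967.3 and 94.1, and the erythroid anion exchanger Slc4a1 6853.5, 3917.6 and 37.2. The interaction of Slc4a1, 6.43, was 1.09 without the arrays of low weight. Ngp, Tyrobp and Cxcl12 read 502.2, 567.1 and 700.9 in replicate 3, above every wild-type GFPhigh sample. The rule by which these genes were chosen requires this, so it carries no further weight. The part of other cells in the interactions of all other genes was not tested.

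Markers of megakaryocytes and platelets, a lineage whose genes HSCs also express, differed from those of the other lineages in their summed signal. The summed signal of 14 such markers was 7839, 7842 and 7513 in wild-type GFP- and 13358, 9452 and 12492 in Nras GFP- samples. In GFPhigh cells it was 8187, 7430 and 8349 in wild-type and 5799, 5096 and 6160 in Nras samples. All 3 Nras GFP- samples were above, and all 3 Nras GFPhigh samples below, the 6 wild-type samples, replicate 3 included. F2r, the thrombin receptor, contributed much of the sum and was singled out after its values were seen. Without it, the sums were 4483, 2988 and 5247 against 7078, 5606 and 7933 in GFP- cells, without overlap. In GFPhigh cells they were 6187, 5918 and 5564 against 5087, 4274 and 2760, also without overlap. The separation from all 6 wild-type samples was lost. The Nras GFP- value of 5606 was below 6187 and 5918 in wild-type GFPhigh samples. The Nras GFPhigh values of 5087 and 4274 were above 2988 in a wild-type GFP- sample.

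Of the 12 megakaryocyte markers tested, 1 had a positive interaction, with a median of -0.635, or -1.57 without the arrays of low weight and -0.0308 in replicates 1 and 2 alone. The arms were of opposite sign in 5 of the 12 (41.7%), against 45.7% of all genes, and the Nras difference was positive for 6 in GFPhigh and 9 in GFP- cells, with medians of -0.0382 and 0.76. The summed signal weighs bright genes most, and no single one of the 12 genes was without overlap in both populations. Selp, the adhesion receptor P-selectin, had -3.88 ± 1.66, or -4.80 without the arrays of low weight, and its 3 probe sets ran from -3.88 to -1.46. It read 384.2, 972.3 and 85.6 against 2561.2, 1137.2 and 514.7 in GFP- samples, and 771.0, 726.5 and 372.3 against 930.0, 70.4 and 46.5 in GFPhigh samples, with overlap in both. Tubb1, the beta-tubulin of platelets, had -6.49 ± 2.48, and most of its signals were at or below the median of an array.

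**Figure D4:**
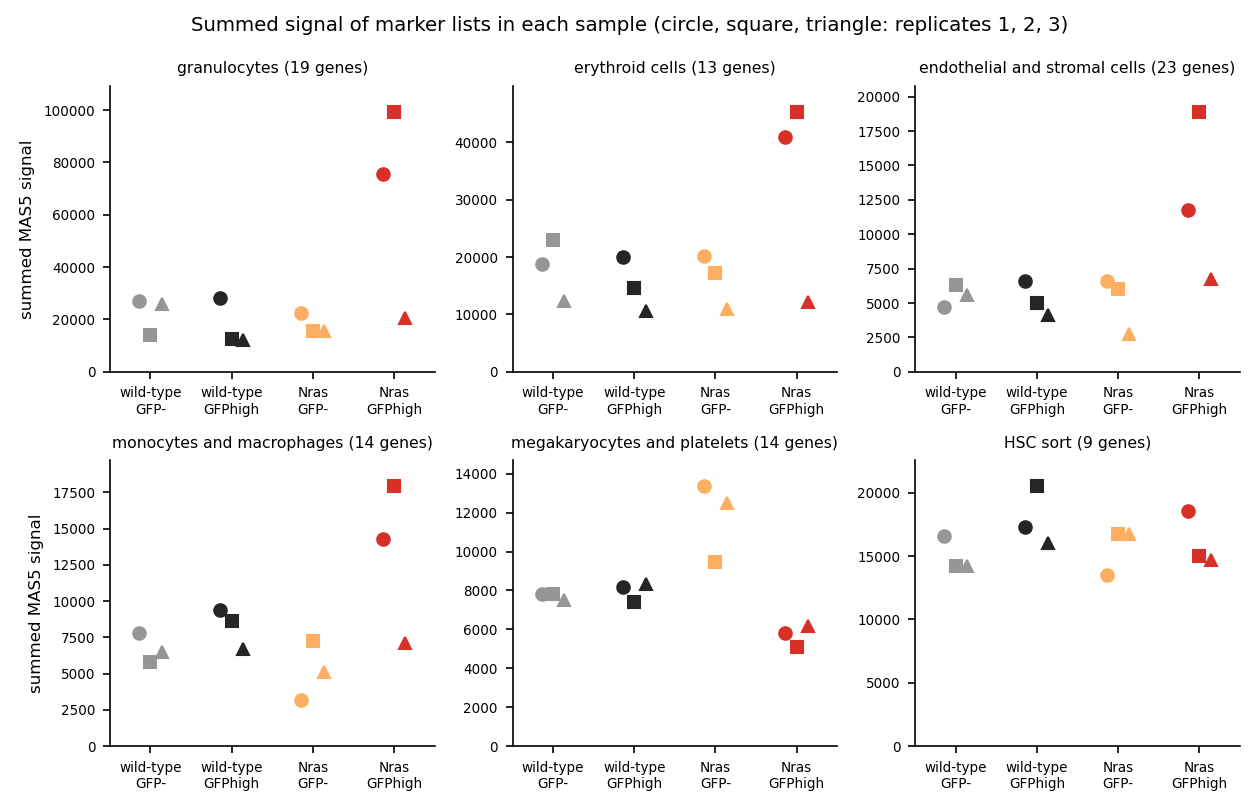
Summed MAS5 signal of 6 marker lists in each of the 12 samples, with circles, squares and triangles for replicates 1, 2 and 3. Nras GFPhigh replicates 1 and 2 stand out for granulocyte, erythroid, stromal and monocyte markers, and for megakaryocyte and platelet markers the Nras GFP- samples are highest (9452 to 13358) and the Nras GFPhigh samples lowest (5096 to 6160).

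Of the genes set by name, 22 were tested. The interval of the interaction lay wholly on one side of 0 for Lig1 (-6.93 to -2.16) and for Lig4 (0.37 to 11.20), the ligase of DNA end joining. Lig4 read 0.7, 0.6 and 1.0 in wild-type GFPhigh and 1.2, 1.2 and 65.2 in Nras GFPhigh samples, far below the median of an array, so its interaction of 5.79 ± 2.51 rests on signals near 0. For the other 20 the interval included 0, which does not show that the effects were equal. The narrowest bounds were those of Ccnd2 (-0.37 to 0.83), Mecom (-0.58 to 0.90) and Egr1 (-0.55 to 0.996).

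**Figure D5:**
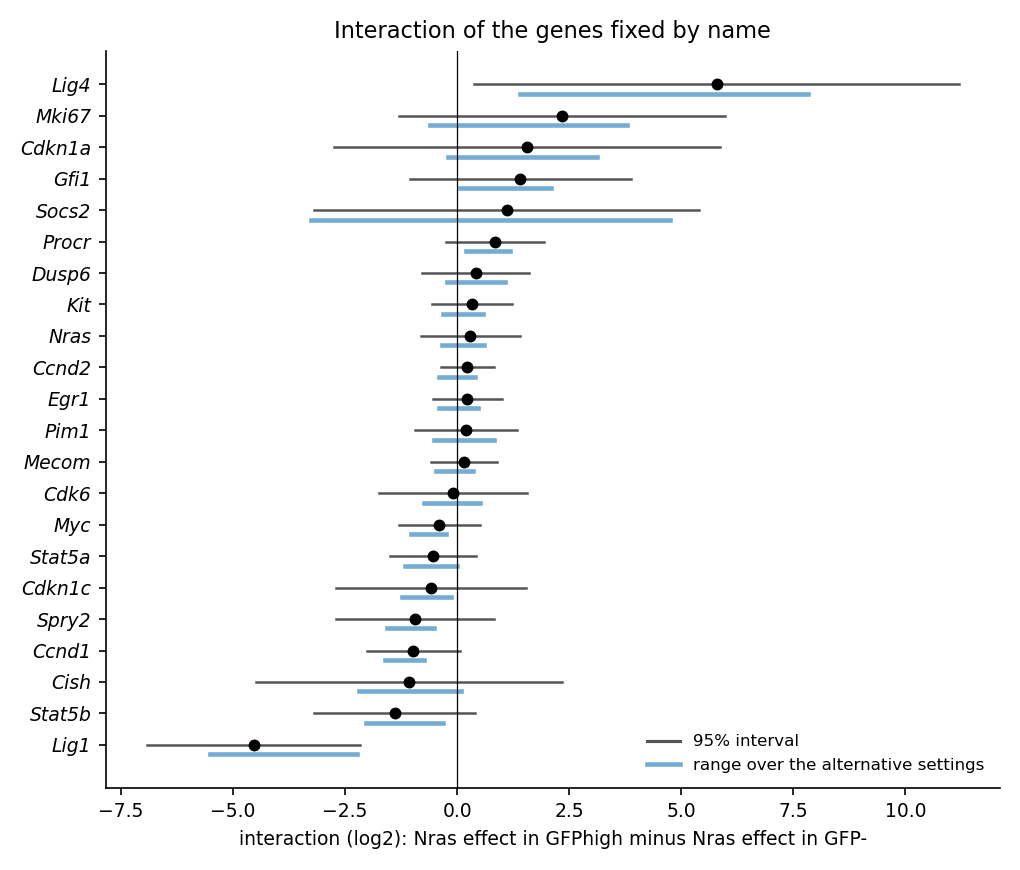
Interaction (log2) of the 22 tested genes set by name, with the 95% interval from limma (grey) and the range over the alternative settings (blue). The interval of 20 genes includes 0, and the 2 that do not are Lig1 and Lig4.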

How the data were processed

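Total RNA of sorted HSCs was measured on 12 Affymetrix arrays, 1 per sample. The deposited values are MAS5 signal intensities on a linear scale, made by the authors with MAS5, per the submitters' processing notes, of a version that the sources used here do not give. Trimmed of 2% at either end, the mean signal was 499.9 on every array, so the arrays were scaled to each other before deposit. No detection calls were used.

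Signals were taken to log2, with 3 values at 0 set to 0.1, and not normalized further. Of 45101 probe sets, 64 were controls, 34945 had 1 gene symbol, 932 several and 9160 none in the annotation used. For each of 18193 genes the probe set with the highest average log2 signal was used, and 12083 genes, above the median of their array in at least 3 arrays, were tested. Of these, 12 passed through arrays of 1 group alone. One limma model with 4 group means and an intensity trend gave the interaction and its arms, two-sided, with Benjamini-Hochberg adjustment over all genes tested, and SE is its moderated standard error. The number of arrays limits the precision.

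The members, the 32 gene lists and the rules were chosen with earlier results of these data known. Genes named were the 5 of smallest interaction p each way, up to 10 firm opposite genes each way, up to 2 of smallest p from a list discussed, and a set of genes chosen by name, of which 22 are reported and 1 is not reported here. Firm genes kept opposite effects of at least 0.5 on log2(signal + 100) and after quantile normalization. Alternatives were pseudocounts of 16 and 100, other filters, quantile normalization, median centring, array weights, other choices of probe sets, a replicate block and arrays left out.

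Samples of equal replicate number were not treated as pairs in the main model. Of 18 such pairs, 3 correlated above 0.1 in their deviations from the group means, and no pair of unequal number exceeded 0.0726. All 3 were among samples of replicate 3, at 0.113 to 0.152. Of the 12 samples, 11 correlated best with a sample of their own number, so the choice not to pair is an assumption. The model with a replicate block is given among the alternatives. P-values measure the spread between the samples, which the labels call biological replicates. The fits used limma 3.58.1 with statmod 1.5.0 in R 4.3.3, and figures were drawn with matplotlib 3.10.9 in Python 3.11.15.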

Additional observations from a re-analysis of the deposited data

Results flagged for a closer look

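By the rule, 21 genes were higher with Nras in GFPhigh and lower in GFP- cells, and 11 were lower in GFPhigh and higher in GFP- cells. The Nras and wild-type values of these genes did not overlap in either population. Samples were not paired, so no effect can be given for a single sample. The interaction in limma tested the difference between the populations for each gene. It reached an unadjusted p under 0.05 for 31 of the 32, the exception being Cdr2l at 0.0649, and an adjusted p under 0.05 for 0. The genes were chosen by the same differences, so the unadjusted values describe the choice.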

How the results depend on the processing

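Of 1538 interactions of single genes recomputed, 65 genes named in the text under up to 24 alternatives, 1501 kept their direction and 0 passed an adjusted p under 0.05, and 37, in 17 genes, changed sign. The count of opposite genes, 32, was 11 with a pseudocount of 100, 69 with no filter, 16 with the filter at the 75th percentile, 19 with array weights, 58 over all probe sets one by one, 241 without the 4 arrays of low weight (15 of them among the 32) and 342 in replicates 1 and 2 alone. It stayed 32 after quantile normalization, but 17 of the 32 were shared, and was 37 after median centring, with 9 shared, and 34 with the mean over probe sets, with 16 shared. Fewer samples make groups without overlap more frequent. With each array left out in turn it was 42 to 82, the highest being 82 without Nras GFPhigh replicate 3 and 76 without Nras GFP- replicate 3. Genes called in the interaction numbered 0 to 1, the 1 being a clone gene without wild-type GFPhigh replicate 2. Those called in GFPhigh cells numbered 0 to 17, the 17 without Nras GFPhigh replicate 3 and 2 without its replicate 2, and those in GFP- cells 0 to 8, the 8 without Nras GFP- replicate 3. With the replicate block the opposite genes were 32 by construction, 0 genes were called in the interaction, the smallest adjusted p was 0.924 and 589 genes had an unadjusted p under 0.05, while 11 of 12 samples correlated best with a sample of their own number, a hint from the data only.

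The sign of the interaction turned as follows. After quantile normalization it was -0.0396 for Ccnd2, 0.00177 for Cdk6, -0.126 for Egr1 and -0.0417 for Mecom. After median centring, which lowers all genes, it was -0.408 for Ccnd2, -0.224 for Dusp6, -0.413 for Egr1, -0.31 for Kit, -0.48 for Mecom, -0.347 for Nras, -0.441 for Pim1 and -0.102 for Rps14. With array weights it was -0.00445 for Cdkn1a and -0.726 for Socs2, and without the arrays of low weight -0.193 for Cdkn1a, -0.595 for Mki67, -0.515 for Pim1 and -3.25 for Socs2. As the mean over probe sets it was -0.0663 for Ccnd2, 0.719 for Dlg4 and -0.303 for Nras, and without shared probe sets -0.604 for Cycs, 0.776 for Dnpep, -0.00334 for Nras and 5.04 for Slamf1. With 1 array left out in turn it ran from -0.429 to 0.503 for Cdk6, -2.2 to 0.0775 for Cish, -0.0308 to 0.461 for Egr1, -0.0668 to 0.351 for Mecom, -0.106 to 0.61 for Nras, -0.179 to 0.635 for Pim1 and -0.33 to 2.46 for Socs2. Beyond the construction of each alternative, the cause was not tested. Signals near or below the array median limit the folds of Lig4, Tubb1, Cd177, Gadd45a, Fancb, Zfp37 and Sparc.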
